A study of Mus musculus with 8 samples.

Results

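The 6 adenylyl cyclase genes Adcy1, Adcy2, Adcy3, Adcy5, Adcy8 and Adcy9 were followed in tagged place cells of the mouse hippocampus. They were taken by name from the 15519 genes of the deposited table, and all 6 passed the filter on low values, so each was tested. The libraries held nuclear RNA of wild-type hippocampal pyramidal cells, which had been recognised as place cells by imaging during navigation in the living animal and then tagged with light (2P-NucTag). One group was made of 4 libraries of Day 0 place cells and the other of 4 libraries of Recurring place cells, all carrying the same genotype (WT). The labels define neither class beyond its name and give no age, sex, batch or number of nuclei per library. Each title names a different mouse, and nothing else states that the libraries are from separate animals. The p-values here therefore measure only the spread between these libraries, which may be partly technical.

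Adenylyl cyclases are membrane enzymes that make cyclic AMP (cAMP) from ATP. All of the membrane forms are stimulated by the G protein Gs, and they differ in what else acts on them. Adcy1 and Adcy8 encode the forms that calcium stimulates through calmodulin, and both are studied in the hippocampus because they link calcium entry at active synapses to cAMP, protein kinase A and CREB-dependent transcription. Mice that lack both genes have defects in long-lasting potentiation and long-term memory. Adcy2 encodes a form stimulated by G beta-gamma subunits and protein kinase C, Adcy5 a form inhibited by Gi and by calcium that is best known from the striatum, Adcy3 the form of olfactory and neuronal primary cilia, and Adcy9 a widely expressed form that responds weakly to forskolin.

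No member differed between Recurring and Day 0 place cells beyond the spread of the libraries. Adcy1 had the higher mean in Recurring cells, 1.50-fold with a 95% interval of 0.812 to 2.76, and the groups overlapped. For Adcy8, the other calcium-stimulated cyclase, the mean log2 difference was -0.04. Its interval of -4.04 to 3.96 was too wide to exclude a change of several fold in either direction. Mean log2 differences were -0.13 for Adcy2 and 0.02 for Adcy9, and Adcy3 and Adcy5 were low and were listed at 0 in 2 libraries each. Differences are given as Recurring minus Day 0 on the scale of log2(normalized count + 1), which understates the change of low genes. A normalized count is the number of reads recovered from the deposited value, divided by a size factor of the library.

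With limma and Benjamini-Hochberg adjustment, 0 of the 6 members passed an adjusted p of 0.05, against 0% of the 11078 genes tested. At an unadjusted p under 0.05 there were 0 members, against 3.62% of all tested genes (401 genes; 1.88% with higher and 1.74% with lower means in Recurring cells). No member had groups that did not overlap, against 2.41% of tested genes (1.24% higher and 1.17% lower). With voom, 0 genes passed and 515 had an unadjusted p under 0.05. Means were higher in Recurring cells for 2 members and lower for 4, with a median difference of -0.07, beside 50.1% higher and a median of 0.005 over all tested genes.

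**Figure D1:**
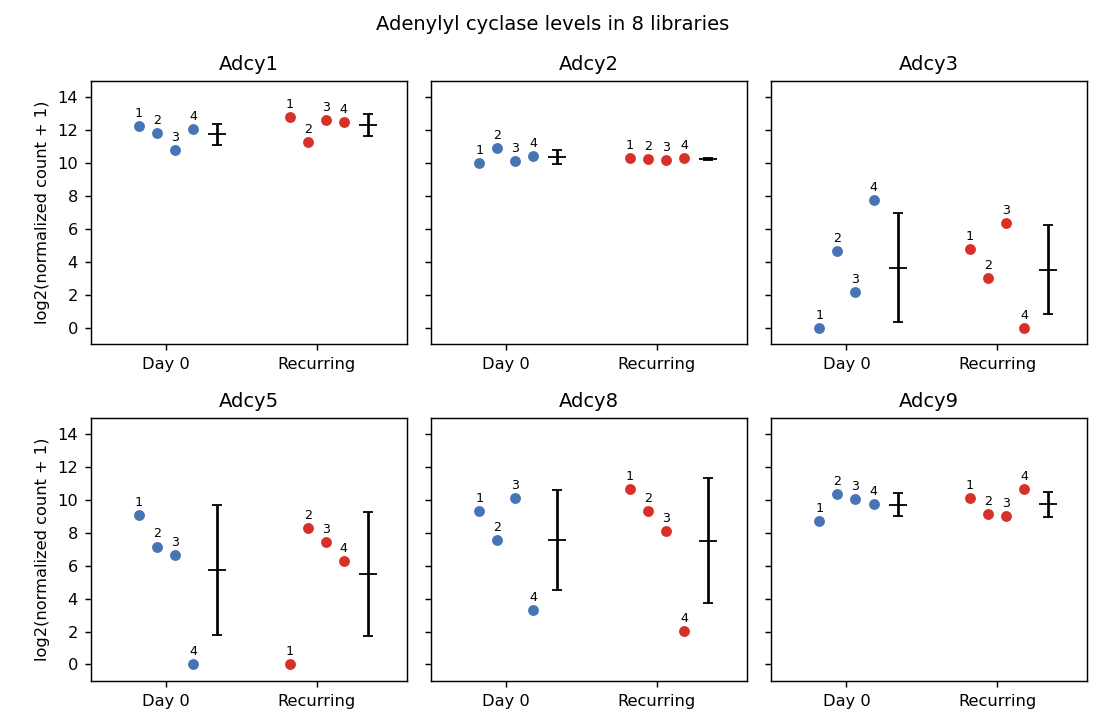
Level of each adenylyl cyclase as log2(normalized count + 1) on the vertical axis, with 1 point per library labelled by replicate number and the group mean ± SD in black beside the points. The points of Adcy1, Adcy2 and Adcy9 lie close together in both groups, those of Adcy8, Adcy3 and Adcy5 are widely spread inside each group, and Adcy3 and Adcy5 each have 1 library at 0 per group.

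Adcy1 was measured with 1501 to 11874 reads per library, the most of any member in each library. In Day 0 cells its normalized counts were 4912, 3700.2, 1794 and 4275 in replicates 1 to 4. In Recurring cells they were 7354, 2558, 6308 and 5916. The 3 highest values were all Recurring, Day 0 replicate 3 was lowest, and Recurring replicate 2 stood below 3 of the 4 Day 0 libraries. Day 0 libraries averaged 11.75 ± 0.65 on the log2 scale and Recurring libraries 12.33 ± 0.69 (SD, n = 4 each). The difference was 0.58 (SE 0.42, 95% interval -0.30 to 1.47, limma adjusted p = 0.981, unadjusted p = 0.182). A 2-sided exact permutation over the 70 assignments of the libraries gave p = 0.286. Recurring replicate 2 and Day 0 replicate 3 had the most influence on this value. Without the former the difference was 0.92 (SE 0.40, limma unadjusted p = 0.0361, adjusted p = 0.998), and without the latter it was 0.27 (SE 0.40, adjusted p = 0.994).

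Adcy8 showed a different picture. Its normalized counts were 631, 185, 1122 and 9.02 in Day 0 replicates 1 to 4 and 1645, 635, 276 and 3.04 in Recurring replicates 1 to 4. In each group 1 library stood far below the other 3, with 9 reads in Day 0 replicate 4 and 3 reads in Recurring replicate 4, and the remaining libraries of the groups overlapped. Day 0 libraries averaged 7.58 ± 3.03 on the log2 scale and Recurring libraries 7.53 ± 3.82 (SD, n = 4 each), and the difference was -0.04 (SE 1.90, limma adjusted p = 0.998). Leaving out Day 0 replicate 4 moved it to -1.46 (SE 1.67, adjusted p = 0.992), and leaving out Recurring replicate 4 turned it to 1.80 (SE 1.47, adjusted p = 0.982), so the sign for Adcy8 depended on which library was in the fit. Both had ample reads for Adcy1, which stood at 4265 reads in Day 0 replicate 4 and 5831 in Recurring replicate 4.

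The spread of Adcy8 was not unusual for its level. Its SD over all 8 libraries was 3.20 on the log2 scale, and 76.1% of the 2794 tested genes within 1 log2 unit of its mean had a smaller SD (median 2.33). For Adcy1 the SD was 0.69, and 70.9% of 622 genes at its level had a smaller one. In such bulk libraries, fewer cells of a type and less RNA per cell cannot be told apart.

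Adcy2, the G beta-gamma-stimulated form, was the steadiest member. Its normalized counts were 1037, 1974, 1140.0 and 1369 in Day 0 and 1263, 1208, 1155 and 1279 in Recurring cells. The Recurring libraries lay close together, inside the wider Day 0 range, and Day 0 replicate 2 was the highest of all. Day 0 libraries averaged 10.39 ± 0.41 on the log2 scale and Recurring libraries 10.26 ± 0.07 (SD, n = 4 each), with a difference of -0.13 (SE 0.50, limma adjusted p = 0.998). Over the 8 libraries its SD was 0.28, and 0.680% of the 2058 tested genes within 1 log2 unit of its mean had a smaller SD (median 0.84). Since limma moderates each variance towards that of genes at a like level, the 95% interval of the difference was -1.19 to 0.94. Exons of Adcy2 overlap those of Gm35161 on the other strand, and strand use in the counting is not given in the sources used here. Reads of the pair cannot be told apart, although Gm35161 had at most 314 reads in any library against 954 to 2475 for Adcy2.

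Adcy9 had normalized counts of 423, 1295, 1056 and 846 in Day 0 and 1091, 568, 524 and 1606 in Recurring cells. High and low libraries occurred in both groups, with Recurring replicate 4 highest and Day 0 replicate 1 lowest. Day 0 libraries averaged 9.71 ± 0.70 on the log2 scale and Recurring libraries 9.73 ± 0.77 (SD, n = 4 each), with a difference of 0.02 (SE 0.66, 95% interval -1.37 to 1.42, limma adjusted p = 0.998).

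Adcy5 had normalized counts of 532, 143, 100.4 and 0 in Day 0 and 0, 316, 172 and 78.1 in Recurring cells. One library in each group had no Adcy5 read, which allows up to 0.307 RPM (the share of library reads, scaled to the usual common total) in Day 0 replicate 4 and 0.202 in Recurring replicate 1, from counting error only. Day 0 libraries averaged 5.72 ± 3.95 on the log2 scale and Recurring libraries 5.51 ± 3.76 (SD, n = 4 each). The difference was -0.21 (SE 2.56, 95% interval -5.62 to 5.20, limma adjusted p = 0.998), and it ran from -2.12 (SE 2.26, adjusted p = 0.992) without Day 0 replicate 4 to 1.63 (SE 2.28, adjusted p = 0.952) without Recurring replicate 1, the libraries at 0.

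Adcy3, the cilium-associated form, was the lowest member. Its normalized counts were 0, 23.9, 3.58 and 212 in Day 0 and 26.0, 7.27, 81.6 and 0 in Recurring cells. A count of 0 allows up to 0.254 RPM in Day 0 replicate 1 and 0.321 in Recurring replicate 4. Day 0 libraries averaged 3.64 ± 3.32 on the log2 scale and Recurring libraries 3.54 ± 2.72 (SD, n = 4 each), with a difference of -0.10 (SE 2.25, 95% interval -4.84 to 4.64, limma adjusted p = 0.998). Without Day 0 replicate 4, the library with 212 reads, the difference was 1.26 (SE 2.19, adjusted p = 0.992), and without Day 0 replicate 1 it was -1.32 (SE 2.55, adjusted p = 0.978). Exons of Adcy3 overlap those of Cenpo on the other strand, whose reads ranged from 0 to 84, so part of these low counts cannot be assigned with certainty. A value of 0 was common in these libraries, since 45.6% of the tested genes were at 0 in at least 1 of the 8.

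The table also held 3 other cyclases of the family. Adcy6, close in sequence to Adcy5, had 0 to 53 reads per library and a difference of 0.58 (SE 1.83, limma adjusted p = 0.998). Adcy10, the soluble cyclase stimulated by bicarbonate and calcium, had 10, 49, 212 and 29 reads in Day 0 and 0, 9, 1 and 123 in Recurring cells. Its difference was -2.56 (SE 2.24, 95% interval -7.29 to 2.18, limma adjusted p = 0.981), and Recurring replicate 4 lay above 3 of the Day 0 libraries. Adcy7 did not pass the filter on low values. Adcy4 was not analysed here.

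**Figure D2:**
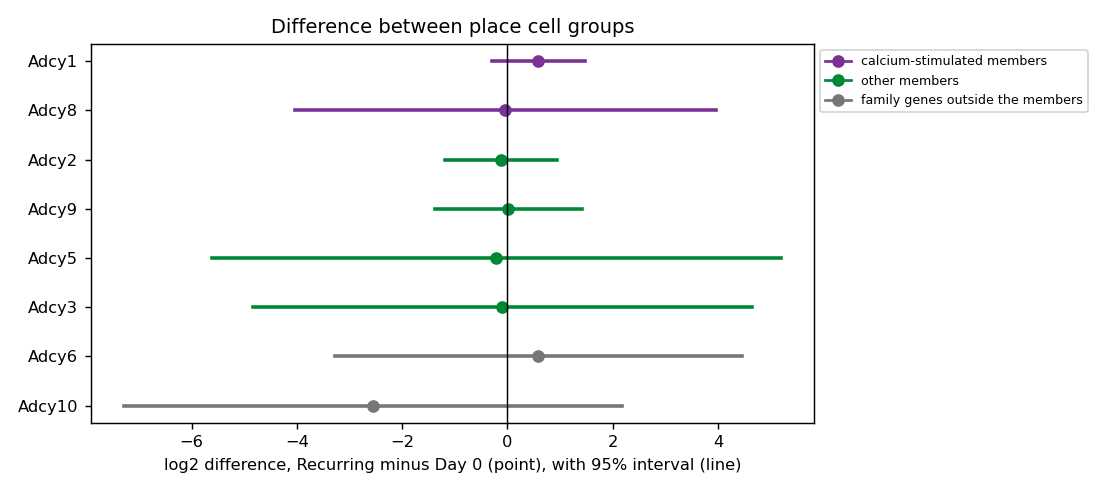
Log2 difference between Recurring and Day 0 place cells for each tested adenylyl cyclase (point) with its 95% interval from limma (line), calcium-stimulated members in purple, other members in green and family genes outside the members in grey. Every interval crosses 0. Those of Adcy1, Adcy2 and Adcy9 are the narrowest, at 1.77 to 2.79 log2 units wide, and those of Adcy3, Adcy5, Adcy6, Adcy8 and Adcy10 are 7.73 to 10.81 wide.

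Levels of the members were compared with each other per kilobase of merged exon in the GENCODE vM21 annotation. Over all 8 libraries the normalized count per kilobase was 368 ± 152 for Adcy1, 309 ± 68.6 for Adcy2, 178 ± 79.4 for Adcy9, 69.1 ± 70.9 for Adcy8, 23.3 ± 24.9 for Adcy5 and 7.10 ± 11.7 for Adcy3 (SD, n = 8). On this scale, Adcy1, Adcy2 and Adcy9 were the 3 highest in all 8 libraries, Adcy1 leading in 5 and Adcy2 in 3. Neighbours in this order were compared within libraries by a 2-sided exact sign-flip permutation test, with Benjamini-Hochberg adjustment over the 5 pairs. The order came from the same libraries. Adcy1 did not separate from Adcy2, with a mean log2 difference per kilobase of 0.14 ± 0.75 (SD, n = 8, exact p = 0.562, adjusted p = 0.562). Adcy2 was above Adcy9 in 7 of 8 libraries, by 0.91 ± 0.57 (SD, n = 8, exact p = 0.0156, adjusted p = 0.0391). Adcy9 was above Adcy8 in 8 of 8, by 2.82 ± 3.53 (SD, n = 8, exact p = 0.00781, the smallest this test can give, adjusted p = 0.0391). That result rested on dividing by exon length, 8152 bases for Adcy8 and 5197 for Adcy9. By undivided reads, Adcy8 was the higher gene in replicate 1 of each group, Day 0 replicate 3 and Recurring replicate 2. Adcy9 was the higher one in the remaining libraries. Per-kilobase margins were narrow in replicate 1 of both groups, at 81.4 against 77.3 (Day 0) and 210.0 against 202 (Recurring). Whether reads covered the exons evenly was not tested. Adcy8 and Adcy5 (adjusted p = 0.469 by the same exact test) and Adcy5 and Adcy3 (adjusted p = 0.469) did not separate. Adcy1 and Adcy8 were not neighbours in this order and were not tested against each other.

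To compare the calcium-stimulated pair with the other 4 genes without any library scaling, their share of all member reads was taken within each library. Adcy1 and Adcy8 together made up 73.6%, 53.1%, 55.9% and 63.8% of member reads in Day 0 replicates 1 to 4, and 79.1%, 60.3%, 77.3% and 66.6% in Recurring replicates 1 to 4. The Recurring shares were 70.8 ± 8.90% and the Day 0 shares 61.6 ± 9.19% (SD, n = 4 each), a difference of 9.25 percentage points that was near the SD within the groups, and the groups overlapped. Exact 95% binomial intervals, which cover counting error only, were narrow, such as 78.5 to 79.7% for Recurring replicate 1 and 54.4 to 57.4% for Day 0 replicate 3. Read shares weigh long genes more, and Adcy1 has the longest merged exons of the 6 (12522 bases). Per kilobase, the pair made up 53.9%, 30.0%, 36.5% and 39.6% in Day 0 and 60.5%, 39.0%, 56.6% and 43.1% in Recurring cells, and these groups overlapped too.

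Most of this share was Adcy1, at 34.4 to 65.2% of member reads in Day 0 and 48.4 to 74.1% in Recurring cells. Adcy8 ranged from 0.134 to 21.5% in Day 0 and from 0.0343 to 14.5% in Recurring cells. In Day 0 replicate 3, the library with the lowest Adcy1 share, Adcy8 had its highest share. On the log2 scale, the mean of Adcy1 and Adcy8 minus the mean of the other 4 averaged 2.30 ± 1.46 over the Day 0 and 2.67 ± 2.09 over the Recurring libraries (SD, n = 4 each), a difference of 0.37 with overlapping groups. This difference changed sign with single libraries, at -0.56 without Recurring replicate 1 and -0.15 without Day 0 replicate 4, and was 1.11 without Recurring replicate 4. Summed over the 6 genes, levels in RPM were 859, 906, 521 and 686 in Day 0 and 1234, 536, 933 and 938 in Recurring cells, again with overlap.

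**Figure D3:**
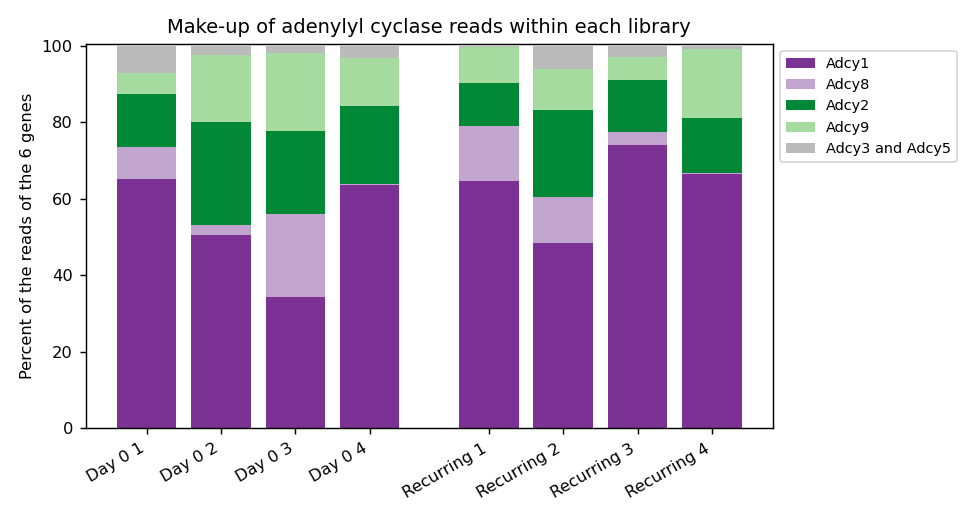
Percent of the reads of the 6 adenylyl cyclase genes that belonged to each gene (vertical axis, from 0 to 100), 1 bar per library, with Adcy3 and Adcy5 summed. Adcy1 was the largest part of every bar, from 34.4% in Day 0 replicate 3 to 74.1% in Recurring replicate 3, and Adcy8 was nearly missing in replicate 4 of both groups.

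Profiles of the members over the 8 libraries were compared by the root-mean-square distance between log2 levels, each centred on its own mean. This distance grows with the spread of the genes themselves, so it ranks no pair as more alike. For reference, the root-mean-square spread of each member around its own mean was 0.65 for Adcy1, 0.26 for Adcy2, 2.63 for Adcy3, 3.34 for Adcy5, 2.99 for Adcy8 and 0.64 for Adcy9. Adcy1 and Adcy8 were 3.22 apart and lay on the same side of their means in 4 of 8 libraries. The search took 5598 of the 6091 genes with reads in every library, leaving out the members, predicted genes and clones. Those nearest to Adcy1 were Srgap3, which encodes a GTPase-activating protein, at 0.23, and the aminopeptidase gene Aopep at 0.25. Nearest to Adcy2 were the receptor phosphatase gene Ptprs (0.19) and the ubiquitin-conjugating enzyme gene Ube2b (0.20), and nearest to Adcy9 were Setd1b (0.23), a histone methyltransferase gene, and Rabl6 (0.31). For the 3 members with the wide spread they were Cep290 (1.04) and Tmem185a (1.08) for Adcy8, Kat6b (1.05) and Khdrbs2 (1.08) for Adcy5, and Fat3 (0.99) for Adcy3. Cep290, a gene of the ciliary transition zone, had its lowest log2 levels in the same 2 libraries as Adcy8, as did Tmem185a. Both genes were picked for their likeness to Adcy8, so this match follows from the search. With 8 libraries and so many genes searched, these distances are descriptions only.

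Of 141 listed genes beyond the members, 100 were in the table and 83 were tested. The lists cover the other adenylyl cyclases of the family, the guanylyl cyclases, and the receptors, G proteins, calcium sensors, phosphodiesterases and effectors of the pathway. Means were higher in Recurring cells for 44 and lower for 39, the median difference was 0.06, and 0 passed the adjusted threshold with limma. Groups did not overlap for 2 of them, against 2.41% of all tested genes, and 1 had an unadjusted p under 0.05, against 3.62%.

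Among the receptors, Gi-coupled ones lower cyclase activity. Of 10 tested, 5 had higher and 5 lower means, with a median difference of -0.04. The gene with the smallest p was Gabbr1, a GABA-B receptor subunit. Its normalized counts were 3651, 4269.6, 4395 and 3419 in Day 0 and 2221, 2756, 1088 and 1506 in Recurring cells. All 4 Recurring libraries lay below all Day 0 libraries, with a difference of -1.14 (SE 0.41, limma adjusted p = 0.981, unadjusted p = 0.0134). For Gabbr2, its partner subunit, the difference was -0.46 (SE 0.67, adjusted p = 0.998). Of 8 tested Gs-coupled receptors, which stimulate cyclases, 2 had higher and 6 lower means, with a median of -2.32. All of them but Vipr1 and Mc4r were at 0 in 2 to 4 libraries each. Their SEs ran from 1.05 for Mc4r to 2.77 for Adcyap1r1. Summed over the 10 such receptors in the table, normalized counts were 1693 to 2501 in Day 0 and 1802 to 2264 in Recurring cells. The smallest p in that list was that of the melanocortin receptor gene Mc4r, at 1.82 (SE 1.05, adjusted p = 0.981).

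No G protein gene passed the adjusted threshold. All 3 stimulatory G protein genes were tested, 2 with higher and 1 with lower means, and Gnas, which encodes the Gs alpha subunit, differed by 0.39 (SE 0.66, limma adjusted p = 0.998). Of 6 inhibitory ones, 5 had higher means (median 0.46), with the smallest p for Gnaz at 2.56 (SE 1.90, adjusted p = 0.981), and of 8 G beta and gamma genes 3 did (median -0.07), with Gng2 at -2.25 (SE 1.76, adjusted p = 0.981). Calmodulin is the calcium sensor of the Adcy1 and Adcy8 products. Of its genes, Calm2 differed by 0.32 (SE 0.31) and Calm3 by -1.03 (SE 0.90), and the calmodulin-binding protein gene Nrgn differed by -0.24 (SE 0.40). None of these passed, and the list of 6 had 3 higher and 3 lower means (median -0.02).

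Phosphodiesterases, which break cAMP down, had 2 higher and 8 lower means among 10 tested genes, with a median of -0.44. Pde7a had the smallest p, with normalized counts of 1391, 700.2, 1158 and 1086 in Day 0 and 74.3, 1622, 42.4 and 835 in Recurring cells. These groups overlapped, and the difference was -2.03 (SE 1.06, limma adjusted p = 0.981). Pde4a, named after its values were seen, was the second gene of the 83 whose groups did not overlap. It stood at 865 to 1416 in Day 0 and 132 to 788 in Recurring cells, with a difference of -1.38 (SE 0.77, adjusted p = 0.981). For Pde10a, the list member with the highest mean, the difference was -0.04 (SE 0.43).

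Genes of cAMP effectors had 8 higher means and 1 lower among 9 tested, with a median of 0.36. Of the 8, Bves (0.0032, SE 2.45) and Prkar1a stood close to 0, and the lower one was Prkaca at -1.68 (SE 2.04). Rapgef4, which encodes the cAMP-activated exchange factor Epac2, had normalized counts of 2939, 3089, 1570.2 and 2625 in Day 0 and 6619.6, 5524, 3220.4 and 3067 in Recurring cells. The highest 3 values were Recurring and the groups overlapped by a narrow margin. The difference was 0.82 (SE 0.40, limma adjusted p = 0.981, unadjusted p = 0.0571). Prkar1a, a regulatory subunit of protein kinase A, differed by 0.0048 (SE 0.46). A-kinase anchors, which place that kinase near its targets, had 5 higher and 4 lower means (median 0.06), with the smallest p for Akap5 at -2.44 (SE 1.54, adjusted p = 0.981). CREB factors and coactivators had 5 higher and 3 lower means (median 0.47), with Crtc3 at -3.09 (SE 1.79, adjusted p = 0.981). Guanylyl cyclases, which make cyclic GMP, had 3 higher means and 1 lower (median 0.42), with Gucy1b1 at -1.64 (SE 1.47, adjusted p = 0.981).

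**Figure D4:**
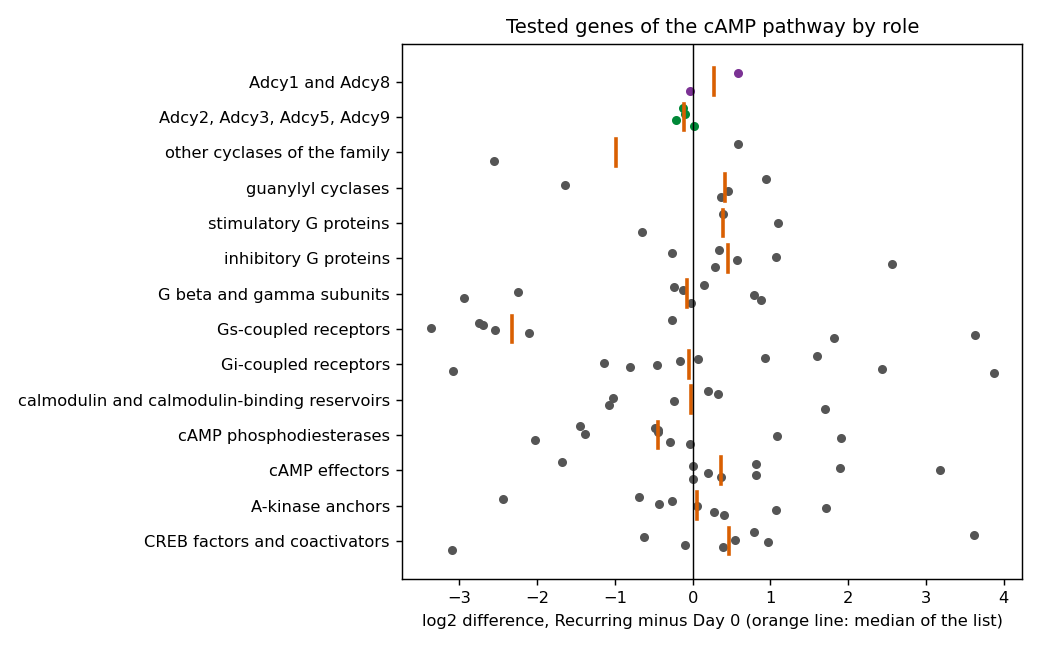
Log2 difference between Recurring and Day 0 place cells for every tested gene of the cAMP pathway lists (grey points, members in purple and green), 1 row per list, with the median of each list as an orange line. Differences scatter on both sides of 0 in most lists, and no point passed the adjusted threshold. Medians were -2.32 for the 8 Gs-coupled receptors and 0.36 for the 9 cAMP effectors. All of those receptors but Vipr1 and Mc4r were at 0 in 2 to 4 libraries each.

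Library depth was 8374986 to 14887866 recovered reads. Markers of CA1 pyramidal cells were abundant everywhere, 11 of 12 being in the table with summed normalized counts of 28328 to 42095 in Day 0 and 27917 to 48079.8 in Recurring cells. Of these, 9 had reads in all 8 libraries, among them the highest gene, Zbtb20, and the vesicular glutamate transporter gene Slc17a7, while Pou3f1 and Nrip3 were at 0 in 1 library each. Camk2a, the calcium/calmodulin-dependent kinase gene, was the 1 CA1 marker with an unadjusted p under 0.05 and the 1 with groups that did not overlap, lower in all 4 Recurring libraries (-1.09, SE 0.42, limma adjusted p = 0.981, unadjusted p = 0.0191). Genes listed as markers of other cell types had reads too, and how specific each is to its cell type was not tested. Astrocyte markers (10 of 11 in the table, led by Slc1a2) summed to 2787 to 4159 in Day 0 and 2506 to 17879 in Recurring cells, with 17879 in Recurring replicate 1 and 11515 in replicate 2, and 8 of 10 had higher means in Recurring cells (median difference 2.81, 0 past the adjusted threshold). Of these 10, 3 had an unadjusted p under 0.05, against 3.62% of all tested genes, and 2 had groups that did not overlap, against 2.41%. Of the defining genes, Aldh1l1 was at 0 in 3 libraries, all Day 0. Interneuron markers (10 of 10, led by Lamp5) summed to 990.5 to 3210.5 and 1703 to 12619.7, the last in Recurring replicate 2, and Gad1 was at 0 in 2 libraries. Microglial markers (5 of 9, led by Ctss) summed to 213 to 707 and 507 to 6056, the last in Recurring replicate 4, and Tmem119 was at 0 in 5 libraries. Of 4 microglial markers tested, 3 had higher means (median difference 4.57), 2 had an unadjusted p under 0.05, 1 had groups that did not overlap and 0 passed the adjusted threshold. Oligodendrocyte markers (9 of 9 in the table) summed to 1557 to 12071 and 1437 to 7644, and Mog was at 0 in 5 libraries. Their precursors' markers (4 of 6, led by Tnr) summed to 311 to 2786 and 939 to 1625, with Olig2 at 0 in 5. Tnr alone made up the sums of 311 and 2786, in Day 0 replicates 3 and 4. Dentate granule markers (7 of 8, led by Rfx3) summed to 3813 to 6683 and 2985 to 8539, with Prox1 at 0 in 2. Most of this sum was Rfx3 (1471 to 4579 over all libraries) and Calb1 (616 to 3146), while C1ql2 stood at 0 to 45.4. Endothelial markers (5 of 6, led by Slc2a1) summed to 114 to 486 and 26.5 to 548, with Pecam1 at 0 in 3.

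Libraries that stood out in member values had these marker sums. The library highest in Adcy1 and Adcy8, Recurring replicate 1, also had the highest astrocyte and CA1 sums. Recurring replicate 2, the lowest Recurring library in Adcy1, had the highest interneuron and the second-highest astrocyte sum. Recurring replicate 4, with 3 Adcy8 reads and the highest Adcy9 level, had the highest microglial sum and the second-highest oligodendrocyte sum (7644). Day 0 replicate 4, with 9 Adcy8 reads, had the highest oligodendrocyte sum (12071). The libraries poorest in Adcy8 were thus the highest in oligodendrocyte markers, while Recurring replicate 1, highest in Adcy8, had an oligodendrocyte sum of 5371. Day 0 replicate 3, second highest in Adcy8, had a low astrocyte sum of 2787. The part of these cell types in the member values was not tested.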

How the data were processed

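The deposited table holds 1 signal per gene and library, not log-transformed. The submitters' processing notes name STAR, HTSeq and GRCm39. For every gene, a deposited value equalled a whole number of reads times 1 constant of that gene, without correction for depth. Dividing the constants out gave whole reads for 95910 of 95910 values above 0, to a tolerance of 0.1 read. Size factors of the libraries came from the median of ratios. Genes with a normalized count of at least 10 in at least 4 libraries were tested with limma 3.58.1 (R 4.3.3, variance trend, pseudocount 1, Benjamini-Hochberg adjustment). The steps were tested on simulated data. Exon lengths and overlaps were read from GENCODE vM21, which annotates the previous mouse build.

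The members and gene lists were chosen with earlier results of these data known. Named were the members, family cyclases, the list gene with the smallest p, the marker with the highest mean and the 2 genes nearest to each member. Chosen after their values were seen were Gabbr2, Calm2, Nrgn, Pde4a, Pde10a, Prkar1a, Bves, Prkaca and the defining markers. Alternatives were another pseudocount, filter, scaling and test, and leaving out each library. Some genes that the rule takes are not reported here.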

Additional observations from a re-analysis of the deposited data

Results flagged for a closer look

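Of 32 groups of 4 libraries looked at, 1 held a library far from the others. Adcy7, a cyclase best known from blood and immune cells, had 58 reads in Recurring replicate 3, a log2 level of 5.96, and 0 reads in the other 3 Recurring libraries. In Day 0 cells it had 0, 8, 1 and 0 reads. The nominal rate of the 95% limit used is about 1 in 20 groups by chance, and Adcy7 did not pass the filter on low values. The other 3 Recurring libraries were tied at 0, so any reads in replicate 3 would have been flagged. The nominal rate does not describe such a group.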

How the results depend on the processing

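Over the 6 members and 96 alternatives, 0 differences passed the threshold and 22 changed sign. Adcy1 kept its sign in all 16, between 0.27 and 0.92 when single libraries were left out. The sign turned with the deposited values as they stand for Adcy3 (0.10) and Adcy8 (0.03), with voom for Adcy3 (0.03) and Adcy8 (0.39), with pseudocount 5 for Adcy8 (0.08), and with TMM factors (-2e-05) and library totals (-0.02) for Adcy9; the cause was not tested. When single libraries were left out, differences ran from -0.25 to 0.06 for Adcy2, -1.32 to 1.26 for Adcy3, -2.12 to 1.63 for Adcy5, -1.46 to 1.80 for Adcy8 and -0.30 to 0.25 for Adcy9. The calcium-stimulated minus other contrast ran from -0.56 to 1.11 when single libraries were left out. The number of genes past the threshold was 0, except 2 without the variance trend (lowest adjusted p 0.0300), neither a member. The median of all tested genes moved to 0.08 with the deposited values. No paired analysis was possible, because each title names a different mouse and no label links a Day 0 library to a Recurring one. Replicate numbers pair no libraries. The planned edgeR and DESeq2 fits were not run.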
